A study of Mus musculus with 30 samples.

Results

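The nuclear genes for the subunits of the respiratory chain and of ATP synthase were followed through quiescence, injury and age in satellite cells, the resident stem cells of muscle fibres. Members were chosen by gene symbol in the platform annotation. For complex I the symbol had to be Nduf, a letter (a, b, c, s or v) and a number, with nothing after it. The rule also took Sdha to Sdhd, symbols that begin with Uqcr or Atp5, and Cox subunits numbered 4 to 8. The rule matched 82 names, and 80 of them had a probe set of their own among the 19938 genes measured. Complex I contributed 34 genes, complex II 4, complex III 8, complex IV 17 and complex V 17. The other 2 names, Cox7c and Ndufb4, shared all their probe sets with a near copy and were not tested.

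The samples are 30 arrays (Affymetrix Mouse Gene 1.0 ST) in 10 groups of 3. VCAM cells (VCAM+, CD31-, CD45- and Sca1-) came from hindlimb muscles of wild-type C57BL6 mice. In young mice of 2 to 3 months they were taken without injury, as quiescent satellite cells (QSCs), and 36, 60 and 84 h after BaCl2 injury, as activated satellite cells (ASCs). In old mice of 22 to 24 months they were taken as QSCs and at 60 h. YFP cells, sorted on YFP alone, came from young Pax7CreER/+;ROSA26eYFP/+ mice given Tamoxifen, at the same 4 stages. In this model the reporter marks cells that expressed Pax7 when Tamoxifen was given, and their progeny. Genotype and sort therefore differ together between VCAM and YFP cells. Nothing in the labels says whether the 3 arrays of a group came from separate animals, so the tests measure the spread between arrays. Values are log2 array values, and a change is a difference of group means on that scale. A gene was called where limma's Benjamini-Hochberg adjusted p over all genes was under 0.05 and the fold was at least 1.5.

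Complex I takes electrons from NADH and complex II from succinate. Ubiquinone carries them to complex III, and cytochrome c from there to complex IV, which reduces oxygen. Complexes I, III and IV pump protons across the inner mitochondrial membrane, and ATP synthase, complex V, lets them return to make ATP. Each complex except II also holds subunits encoded in mitochondrial DNA. Quiescent satellite cells are small, hold few mitochondria and have low metabolic demand, which increases as they enter the cell cycle.

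Arrays within a group correlated at 0.996 to 0.9983 across genes, and the pooled within-group SD of the members was 0.069 at the median and highest for Ndufa13, at 0.131. The satellite cell marker Pax7 read 11.60, 11.70 and 11.73 in young VCAM QSCs and 10.91, 10.94 and 11.09 in YFP QSCs. Markers of other cells moved with injury too. All 10 macrophage markers, among them Lyz2, were called higher than in QSCs in each of the 7 comparisons of injured with quiescent cells. In young VCAM cells the mean level of those 10 markers was 6.68 in QSCs, 9.83 at 36 h, 8.02 at 60 h and 8.92 at 84 h. The mean level of the 80 subunits was 9.42, 9.81, 10.23 and 10.26 in the same order. The 4 proliferation genes, among them Mki67, stood at a mean of 6.99 in those QSCs and 11.42 at 60 h. The mean level of 8 satellite cell markers was 12.13 in QSCs, 10.52 at 36 h, 10.04 at 60 h and 10.31 at 84 h, and 5 of the 8 were called lower at 36 and at 60 h. Fibroblast markers stood at 10.54 in QSCs, 12.16 at 36 h, 10.14 at 60 h and 10.41 at 84 h. Of 6 endothelial markers 5 were called lower at 60 h, and of 6 pericyte and smooth muscle markers 6. The part of these markers in the changes below was not tested. In bulk RNA, fewer cells of a type and less RNA per cell cannot be told apart.

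Most subunits rose after injury, and more of them were called at 60 h than at 36 h. In young VCAM cells 29 of 80 were called higher than in QSCs at 36 h, where 13.2% of all genes were, and 2 were called lower, where 9.72% were. At 60 h 53 were called higher, against 16.6% of all genes, and 1 lower, against 12.6%. At 84 h the counts were 55, against 16.4%, and 1, against 11.2%. The median change over the members was 0.43, 0.90 and 0.94 at the 3 times, beside a median of -0.01, -0.04 and -0.03 over all genes. Between 36 and 60 h 21 members rose further (6.26% of all genes did), led by Ndufs8 with a further 0.90 (SE 0.08) and Ndufb8 with 0.86. When each array was centred on its median, which moved the median of all genes in this comparison from 0.00 to 0.11, 33 were called. Between 60 and 84 h no member was called in either direction, where 3.95% of genes were. By the adjusted p of limma alone 14 of 80 passed, where 28.0% of all genes did, and the median change was 0.02. With each array centred on its median the median was -0.06, and 54 members in place of 34 were below 0.

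**Figure D1:**
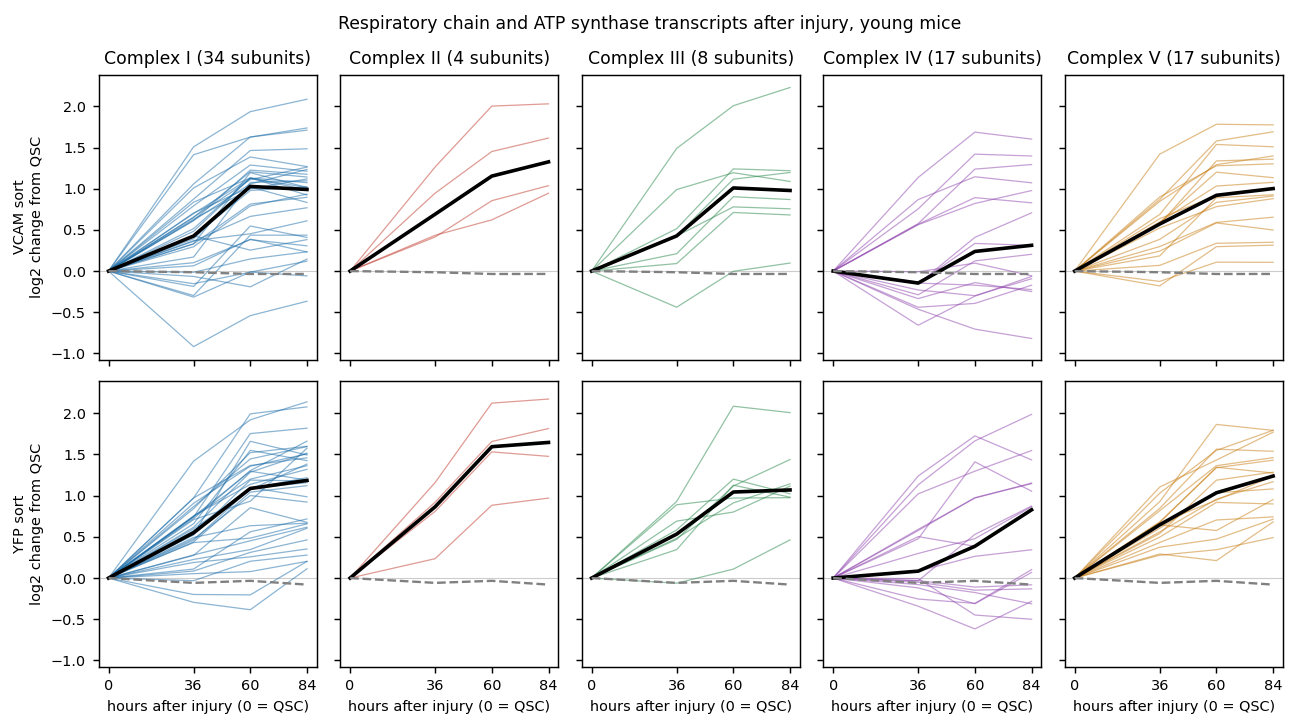
Log2 change from QSC of each of 80 subunit transcripts (thin lines) against hours after injury, by complex, in VCAM cells (upper row) and YFP cells (lower row) of young mice; black lines are complex medians and dashed grey lines the median of all genes. In VCAM cells the medians of complexes I, II, III and V reach about 0.9 or more at 60 h, and that of complex IV stays at 0.24. Among the 10 complex IV members that are not isoforms of few tissues the median was 0.86.

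Complex I rose in 23 of 34 members at 60 h in young VCAM cells, with a median of 1.03, and none was called lower. Ndufa9, an accessory subunit of the arm that joins the membrane, read 8.70, 8.84 and 8.90 in QSCs, 10.31, 10.32 and 10.33 at 36 h, 10.68, 10.76 and 10.80 at 60 h, and 10.88, 10.92 and 10.89 at 84 h. All injured arrays lay above all QSC arrays, and the change at 60 h was 1.94 (SE 0.05, 3.83-fold, limma adjusted p = 1.84e-21). Ndufs1, the large iron-sulphur subunit of the NADH-oxidising arm, rose from 9.80, 9.83 and 9.85 to 11.41, 11.47 and 11.48, a change of 1.63 (SE 0.04). Ndufa4, named for complex I but found in complex IV by later work, also rose by 1.63, from 10.44, 10.54 and 10.53 to 12.09, 12.12 and 12.18. Of 6 measured subunits of the catalytic core, which takes up NADH and hands its electrons to ubiquinone, all 6 were called higher at 60 h, with changes from 0.98 to 1.63. Ndufv1, the flavin-binding core subunit, changed by 1.11 (SE 0.06). Of the 28 accessory subunits 17 were called higher.

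Ndufa6, an accessory subunit of the LYR family, went the other way. It read 9.22, 9.37 and 9.22 in young VCAM QSCs and 8.34, 8.33 and 8.39 at 36 h, and fell by 0.92 (SE 0.07, limma adjusted p = 2.72e-12). It stayed below every QSC array at 60 h (8.66, 8.79 and 8.74, a change of -0.54) and at 84 h (8.91, 8.97 and 8.82, -0.37), but neither difference reached the fold required. With quantile normalisation again the difference at 60 h was -0.71, past that fold. Ndufa6 was 1 of 6 complex I members called higher in none of the 7 comparisons of injured with quiescent cells. The other 5 were Ndufa7, Ndufa11, Ndufb2, Ndufb11 and Ndufv3, with changes at 60 h between -0.19 and 0.39. The probe set used was the brightest of a gene. For Ndufa11 and Ndufb11 a second probe set gave -0.15 and -0.42 in place of 0.39 and 0.15.

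Promoter windows from 250 bases before to 50 after the start of transcription (RefSeq, GRCm38.p6) were searched on both strands for short motifs of factors known for mitochondrial genes. A single window was at hand for 61 members and for 12935 genes in all. The YY1 core AAGATGGCG was in 6 of the 61 (9.84%) and in 2.22% of all genes. It is shown here because 5 of the 6 are complex I genes. All 6 copies lie on the gene's strand, their first base 23 to 36 bases after the start. Strand and position of the core were not counted over all genes. The core holds the letters ATG, and whether these are the start codons of the 6 genes was not tested. All 6 genes were called higher at 60 h, by 0.89 to 1.94, as were 40 of the 61 members with a window. The stretches of 30 bases below run 5′ to 3′ on the gene's strand, with the core in capitals.
Ndufa9: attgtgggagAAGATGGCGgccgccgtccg
Ndufc1: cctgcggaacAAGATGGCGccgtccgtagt
Ndufs4: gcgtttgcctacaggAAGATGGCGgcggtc
Ndufs6: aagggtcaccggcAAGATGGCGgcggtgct
Ndufs7: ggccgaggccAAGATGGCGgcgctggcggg
Atp5j2: ccaggacttcAAGATGGCGtcactcggtga
They lie at chr6:126849096-126849125 (minus strand), chr3:51408914-51408943 (minus), chr13:114388045-114388074 (minus), chr13:73328433-73328462 (minus), chr10:80249463-80249492 (plus) and chr5:145191499-145191528 (minus).

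The NRF1 core GCATGCGC, whose copies can overlap on the 2 strands, was in 10 of the 61 windows (16.4%) and in 3.90% of all. The ETS core CCGGAAG was in 26.2% against 12.5%, and the ERR element AAGGTCA in 11.5% against 3.77%. The SP1 box GGGCGG was in 41.0% against 49.3%, and the E-box CAGCTG in 9.84% against 15.8%. Genes with an NRF1 core moved in different ways. It is shown for Uqcrc1, the gene with the highest change at 60 h, for Sdhb of complex II, and for Ndufa6, which fell at 36 h. In all, 5 of the 10 were called higher at 60 h.
Uqcrc1: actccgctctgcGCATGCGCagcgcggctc
Sdhb: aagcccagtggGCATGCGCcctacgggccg
Ndufa6: tccgcggtagaGCATGCGCattgcagagcc
They lie at chr9:108936668-108936697 (plus), chr4:140961206-140961235 (plus) and chr15:82354356-82354385 (minus). A match is a description of these letters and not evidence of binding.

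All 4 subunits of complex II, succinate dehydrogenase, rose at 60 h in young VCAM cells. The membrane anchor Sdhd rose most, from 8.98, 8.88 and 8.98 in QSCs to 10.26, 10.15 and 10.22 at 36 h and 10.90, 10.98 and 10.98 at 60 h, a change of 2.00 (SE 0.07, 4.01-fold, limma adjusted p = 1.38e-19). The iron-sulphur subunit Sdhb rose by 1.45 (SE 0.07), the other anchor Sdhc by 0.85 (SE 0.05) and the flavoprotein Sdha by 0.62 (SE 0.04). With quantile normalisation again Sdha, at 0.53, missed the fold. At 84 h these changes were 2.03, 1.61, 1.04 and 0.95. At 36 h Sdhd and Sdhb were called, and Sdha and Sdhc, at 0.43 and 0.41, were under the fold required.

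Of the 8 members of complex III 7 rose at 60 h, with a complex median of 1.01. Uqcrc1, core protein 1, read 9.72, 9.72 and 9.86 in young VCAM QSCs, 11.28, 11.22 and 11.26 at 36 h, 11.68, 11.82 and 11.81 at 60 h, and 12.01, 11.95 and 12.02 at 84 h. Its change was 2.01 at 60 h (SE 0.05, 4.02-fold) and 2.23 at 84 h, the highest of the 80 members at both times. Uqcrfs1, the Rieske iron-sulphur protein, rose by 1.24 and the ubiquinone-binding protein Uqcrb by 1.19. Uqcrh, the hinge protein that sits by cytochrome c1, gave 11.31, 11.32 and 11.35 in QSCs and 11.28, 11.32 and 11.37 at 60 h. Its arrays overlapped, and the 95% interval of the difference ran from -0.08 to 0.08.

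**Figure D2:**
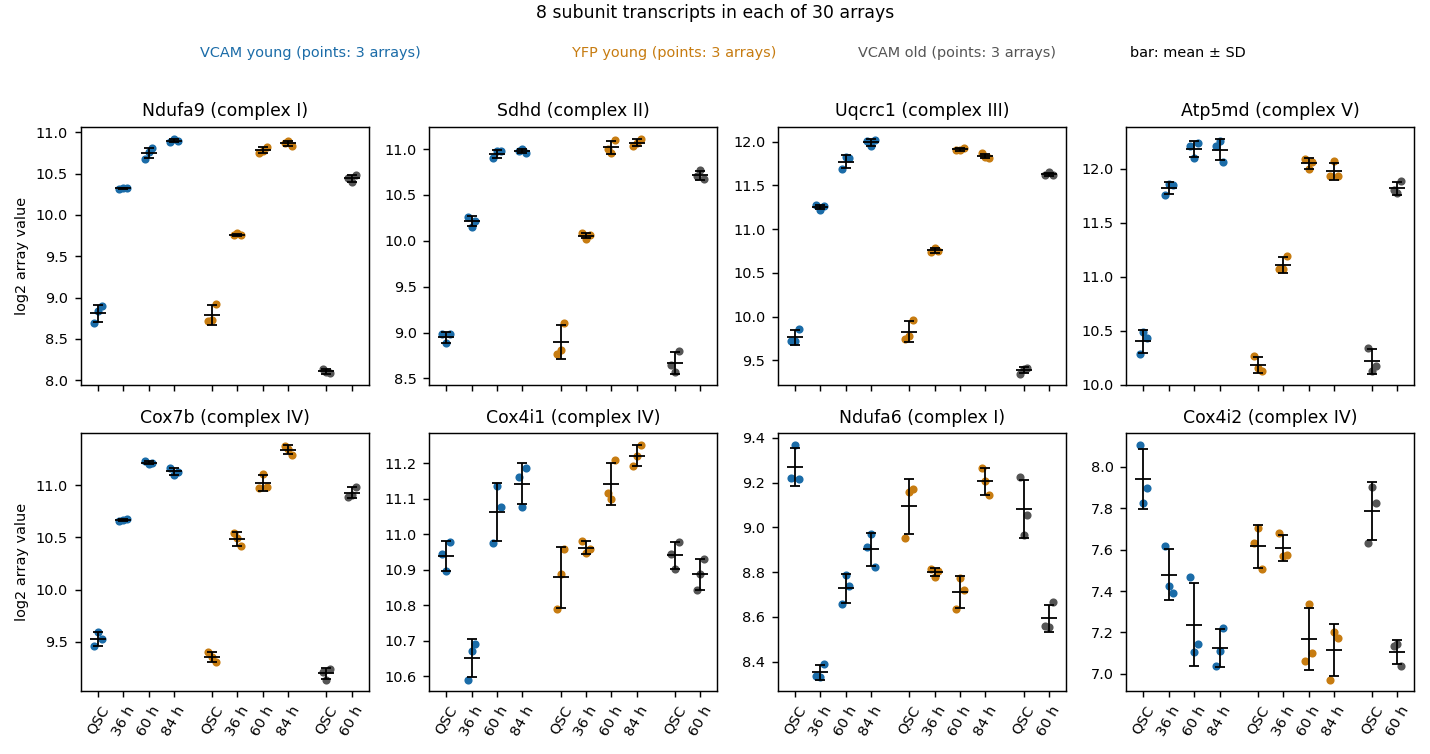
Log2 array values of 8 subunit transcripts in every array, by group: points are the 3 arrays of a group and black bars their mean ± SD (VCAM young blue, YFP young orange, VCAM old grey). Ndufa9, Sdhd, Uqcrc1, Atp5md and Cox7b stand higher in every injured array than in every QSC array, whereas Ndufa6 and Cox4i2 are lower at 60 h in all 3 series.

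At 60 h in young VCAM cells 6 of 17 members of complex IV, cytochrome c oxidase, rose and 1 fell, with a median of 0.24. Textbook roles set apart 7 isoforms that are made mainly in heart and skeletal muscle, testis or lung (Cox4i2, Cox6a2, Cox6b2, Cox7a1, Cox7b2, Cox8b and Cox8c). None of these was called higher at 60 h, and their median was -0.17. Their signals were low: mean levels in young VCAM QSCs were 4.66 for Cox7b2, 6.62 for Cox8b, 6.86 for Cox7a1, 6.92 for Cox6b2, 7.27 for Cox8c, 7.70 for Cox6a2 and 7.94 for Cox4i2, where array medians were 7.03 to 7.16. Whether those at or below the median were expressed was not tested. The 10 others had a median of 0.86. Of these 6 were called higher: Cox7b rose by 1.69 (SE 0.05, from 9.46, 9.60 and 9.53 to 11.23, 11.20 and 11.21), Cox5a by 1.42, Cox6b1 by 1.24, Cox7a2 by 1.15, Cox6c by 0.89 and Cox5b by 0.82. The 4 others were Cox4i1 at 0.12, Cox6a1 at 0.24, Cox8a at 0.34 and Cox7a2l at -0.30.

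Within families the isoforms did not move together. Cox4i1, the general form of subunit 4, gave 10.94, 10.90 and 10.98 in young VCAM QSCs, 10.59, 10.67 and 10.69 at 36 h and 10.97, 11.14 and 11.08 at 60 h. It was called in none of the 7 comparisons with QSCs. Cox4i2, the lung form that low oxygen is known to induce, went from 8.11, 7.82 and 7.90 to 7.47, 7.10 and 7.14 at 60 h and fell by 0.70 (SE 0.10). It fell by 0.82 at 84 h and, in old cells at 60 h, by 0.68. In YFP cells its differences of -0.45 at 60 h and -0.50 at 84 h were under the fold required. Cox7a1, the heart and muscle form, was called higher at 84 h alone. It went from 6.76, 7.04 and 6.77 in QSCs to 7.47, 7.60 and 7.63 in VCAM cells (0.71, SE 0.09), and rose by 0.87 in YFP cells. Markers of the adult myofibre, among them Ckm, had 6 of 10 members called higher at that time in VCAM cells. Cox7a2l, a supercomplex factor related to Cox7a2, fell at 36 h by 0.66 (SE 0.06) in VCAM cells, from 10.57, 10.34 and 10.54 to 9.74, 9.80 and 9.93. Cox8b, the heart and muscle form of subunit 8, fell at 60 h in YFP cells (0.62 lower on the log2 scale) and in old VCAM cells (-0.83).

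**Figure D3:**
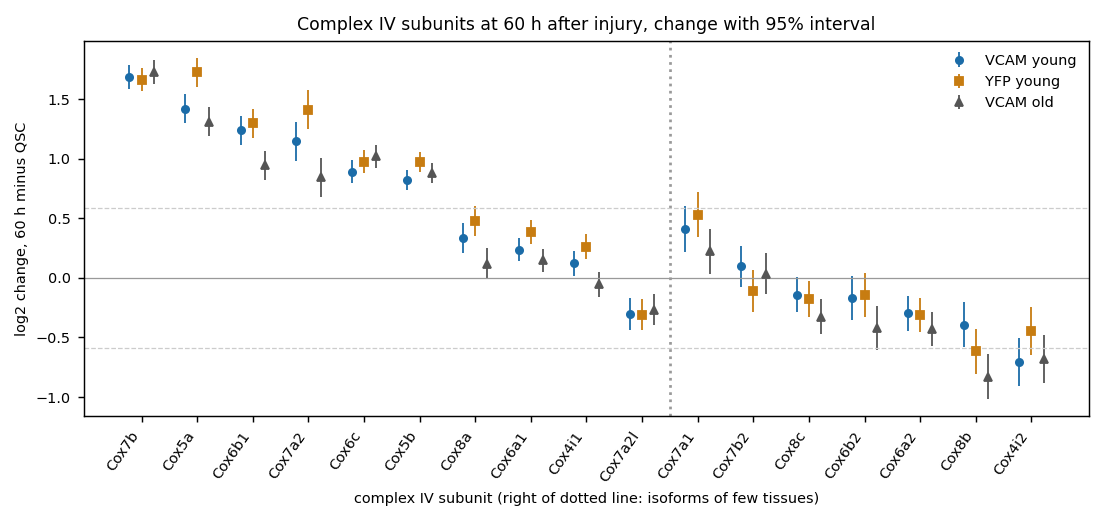
Log2 change at 60 h after injury (y axis, with limma's 95% interval) of the 17 complex IV subunits in young VCAM, young YFP and old VCAM cells; dashed lines mark a fold of 1.5. The general subunits from Cox7b to Cox5b lie above the upper line in all 3 series, while Cox4i1 lies between -0.05 and 0.26, and right of the dotted line the isoforms of few tissues lie at 0.10 or below apart from Cox7a1.

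Complex V rose in 13 of 17 members at 60 h, with a median of 0.92. Atp5md, a small membrane subunit that helps hold ATP synthase dimers, read 10.29, 10.49 and 10.43 in young VCAM QSCs and 12.21, 12.10 and 12.24 at 60 h, a change of 1.78 (SE 0.07). Atp5o, the stalk protein that confers oligomycin sensitivity, rose by 1.58 and Atp5g3 by 1.54. Of the 5 subunits of the catalytic head and its stalk 4 rose, Atp5a1 (alpha) by 0.78, Atp5b (beta) by 0.92, Atp5c1 (gamma) by 0.83 and Atp5d (delta) by 1.03. Atp5e (epsilon) gave 9.25, 9.24 and 9.30 in QSCs and 9.33, 9.33 and 9.45 at 60 h, and its 0.11 did not pass the adjusted p of limma (0.153). The 3 genes of the Atp5g family encode the same mature c-ring subunit. Atp5g3 changed by 1.54 at 60 h, Atp5g1 by 1.20 and Atp5g2 by 0.58, just under the fold required. Atp5g2 passed it with each array centred (0.67) and without VCAM QSC replicate 2 (0.59) or VCAM 60 h replicate 1 (0.60).

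At 60 h in young VCAM cells 16.6% of all genes were called higher and 12.6% lower. Genes around the complexes were counted from lists of the pathway. Those of the assembly factors gave 11 of 13 higher at 60 h in young VCAM cells for complex I, 4 of 10 for complexes II and III, 11 of 18 for complex IV with Surf1 lower, and 3 of 3 for complex V. Among them Ndufaf1 of complex I rose by 1.75, Taco1, which activates translation of a mitochondrial Cox mRNA, by 1.78, and the F1 chaperone Atpaf2 by 2.13. Surf1, which acts in the building of complex IV, fell by 0.62. The mobile carrier cytochrome c, Cycs, rose by 2.05, from 10.31, 10.44 and 10.23 to 12.39, 12.31 and 12.42. Its list, shared with ubiquinone synthesis, had 7 of 12 higher and 3 lower. Coq3 and Coq7, enzymes of that synthesis, rose by 2.25 and 2.02, while Coq8a fell by 1.03, Coq10a by 1.37 and Coq10b by 1.46. Pyruvate dehydrogenase and the citric acid cycle, which supply NADH, had 14 of 15 higher with a median of 1.06, led by Idh3a at 2.21.

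Of 4 subunits or regulators that the name rule leaves out, cytochrome c1 (Cyc1) rose by 1.70, Ndufab1 by 1.39 and the ATP synthase inhibitor Atpif1 by 1.11 at 60 h in young VCAM cells. Ndufa4l2, a hypoxia-induced relative of Ndufa4, fell by 1.59 (SE 0.12), from 7.89, 8.14 and 8.47 to 6.45, 6.69 and 6.59. In old cells it read 7.23, 7.16 and 7.21 in QSCs and 7.12, 7.30 and 7.13 at 60 h, which overlap.

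Of the subunits encoded in mitochondrial DNA 2 were among the genes tested here, and neither was called. ND3 of complex I read 12.77, 13.00 and 12.77 in young VCAM QSCs and 13.21, 13.13 and 13.02 at 60 h, a change of 0.27 (SE 0.07). COX2 of complex IV read 13.65, 13.76 and 13.72, then 13.92, 13.88 and 13.79, a change of 0.15 (SE 0.06). For both genes the 60 h arrays lay above the QSC arrays, and both changes passed the adjusted p of limma (0.00156 and 0.0349) but not the fold.  Among 16 regulators of mitochondrial genes 6 were called higher, where 16.6% of all genes were, and Myc lower, where 12.6% were. Ppargc1b, a coactivator, rose by 0.89 and Tfb1m and Tfam, factors of mitochondrial DNA, by 0.98 and 0.64. The coactivator Ppargc1a gave 7.40, 7.53 and 7.26 in QSCs and 7.25, 7.35 and 7.39 at 60 h, and the arrays overlapped. Nrf1, at 0.58, and Yy1, at 0.16, were not called.

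The YFP cells address the same question in cells marked by lineage. There 35 members were called higher than in QSCs at 36 h (10.1% of all genes), 54 at 60 h (17.2%) and 64 at 84 h (17.0%). At 60 h 1 was called lower, Cox8b (12.8% of genes were). The 53 members called higher in VCAM cells at 60 h were all among the 54 of YFP cells, and at 84 h the 55 were all among the 64. At 36 h 22 were called in both sorts, 7 in VCAM cells only and 13 in YFP cells only. Across the 80 genes, which are not independent replicates, the changes correlated between the sorts at 0.83 (Pearson) at 36 h, 0.97 at 60 h and 0.95 at 84 h, over separate arrays. Between 36 and 60 h 23 members rose in YFP cells, against 8.73% of genes. Between 60 and 84 h Ndufv2, a core subunit of complex I, was called higher (6.86% of genes were called in either direction). It went from 10.52, 10.54 and 10.49 to 11.16, 11.21 and 11.12 and rose by 0.64, and with each array centred on its median no member was called. By complex, YFP cells at 84 h had 28 of 34 members of complex I called higher, 4 of 4 of complex II, 7 of 8 of complex III, 9 of 17 of complex IV and 16 of 17 of complex V. The median of complex IV was 0.83 there, beside 0.31 in VCAM cells at 84 h. Among its 10 members outside the isoforms of few tissues these medians were 1.10 and 0.90.

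The levels in YFP and VCAM cells were also set side by side at each stage. In QSCs no member was called, where 3.55% of genes were, and 39 were lower (15.2% of genes) and 1 higher (14.8%) by limma's adjusted p alone. With each array centred the 39 became 28. In the same QSCs 4 of 6 pericyte and smooth muscle markers were called lower in YFP cells, with a mean level of 9.20 to 9.23 in the YFP and 10.25 to 10.36 in the VCAM arrays. Called lower too were 1 of 5 fibroblast, 2 of 4 proliferation and 1 of 8 satellite cell markers. At 36 h 3 were lower in YFP cells (5.27% of genes were called). They were Ndufc1, a small complex I subunit (9.06, 9.03 and 9.03 against 10.01, 9.92 and 9.94, a difference of -0.92), Atp5md (-0.71) and Cox7a2 (-0.60). At 60 h Ndufs5, a small subunit of the proton-pumping arm, was called lower (1.31% of genes were called), at 8.95, 9.14 and 9.09 against 9.59, 9.81 and 9.68, a difference of -0.63. Without VCAM 60 h replicate 2 or YFP 60 h replicate 1 the fold required was missed (-0.57 each). At 84 h no member was called (1.66% of genes were), with 12 higher (10.8% of genes) and 8 lower (9.88%) by adjusted p alone. Markers of other cells differed between the sorts as well. At 36 h all 6 endothelial markers were higher in YFP cells, Cdh5 at 11.06 in each of the 3 arrays against 9.57 to 9.70, and 4 of 5 fibroblast and 3 of 10 macrophage markers were lower. Satellite cell markers were higher in YFP cells in 5 of 8 cases. The mean level of the endothelial list was 10.25 to 10.31 in the 3 YFP arrays and 8.85 to 8.96 in the VCAM arrays. At 60 h the macrophage list had a mean level of 8.73 in YFP and 8.02 in VCAM cells, and the fibroblast list 8.90 and 10.14. At 84 h the macrophage list stood at 9.64 in YFP and 8.92 in VCAM cells, and the fibroblast list at 9.50 and 10.41. The part of these markers in the differences was not tested.

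**Figure D4:**
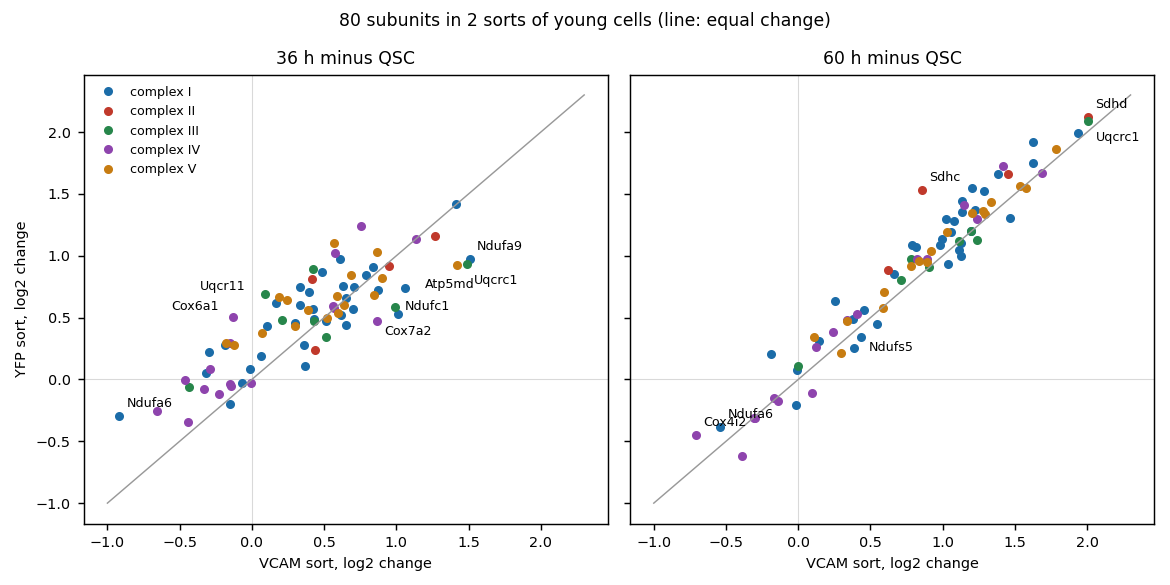
Log2 change from QSC of the 80 subunits in VCAM cells (x axis) and YFP cells (y axis) at 36 h (left) and 60 h (right), coloured by complex, with the line of equal change. At 36 h the points scatter (Pearson 0.83), with Ndufa6, Cox6a1 and Uqcr11 above the line and Ndufc1, Uqcrc1 and Atp5md below it, and at 60 h they lie near it (0.97).

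The difference between the 2 responses was tested as an interaction. At 36 h 3 members had a higher change in YFP than in VCAM cells (9.09% of genes were called): Cox6a1 (0.50 against -0.13), Ndufa6 (-0.29 against -0.92) and Uqcr11, a small subunit of complex III (0.69 against 0.09). The differences were 0.64, 0.62 and 0.60. With each array centred on its median all 3 missed the fold (0.57, 0.56 and 0.54), and Uqcr11 also did with quantile normalisation again (0.55). Uqcr11 missed it in 5 of the fits that left out 1 array and Ndufa6 in 2. At 60 h Sdhc was called (4.99% of genes were), with 1.53 in YFP and 0.85 in VCAM cells. In QSCs it read 9.14, 9.35 and 9.22 in YFP and 9.76, 9.70 and 9.80 in VCAM cells. At 84 h no member was called (6.56% of genes were), and 37 of 80 passed limma's adjusted p alone, as did 27.4% of genes.

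Old QSCs had lower levels of most subunits than young QSCs, by small amounts. Among the 80 members 9 were called lower and none higher, where 4.70% of all genes were called lower. By the adjusted p of limma alone 53 were lower (66.2%, against 21.3% of all genes) and 1 higher, Cox8b. The median difference was -0.27 over members and 0.02 over all genes. Of the 9 called 7 belonged to complex I by name, among them Ndufa4. Ndufc2, a membrane-arm subunit, was at 9.99, 10.02 and 9.72 in old and 10.86, 10.80 and 10.78 in young QSCs, a difference of -0.90 (SE 0.06, limma adjusted p = 9.81e-13). Ndufb5 differed by -0.78, Ndufc1 by -0.77, Ndufa4 by -0.75, Ndufv2 by -0.72, Ndufa9 by -0.70 and Ndufs7 by -0.59. With the mean of its probe sets Ndufc1, at -0.58, missed the fold. Core protein 2 of complex III, Uqcrc2, differed by -0.59 and Atp5c1 of complex V by -0.61. Every old array lay below every young array for these 9 and for 50 of the 80 members in all, and for 23.5% of all genes. All 17 members of complex V passed the adjusted p as lower, with a median of -0.37, whereas 3 of 17 of complex IV did, with a median of -0.05. Among the 10 complex IV members outside the isoforms of few tissues the median was -0.11. Citric acid cycle genes were called lower in 4 of 15 cases. Proliferation genes were called lower in 3 of 4 cases, with a mean level of 6.22 in old and 6.99 in young QSCs and Mki67 at 7.31, 7.14 and 6.97 in old and 7.88, 7.96 and 7.97 in young QSCs. Among markers of other cells 1 of 10 for macrophages was higher, and 3 of 5 for fibroblasts were higher and 2 lower. Of 6 pericyte and smooth muscle markers 3 were called lower, with a mean level of 9.69 to 9.73 in old and 10.25 to 10.36 in young arrays. Of 8 satellite cell markers 3 were called lower, with a mean level of 11.66 to 11.70 in old and 12.11 to 12.16 in young arrays. Their part in the difference was not tested.

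Most subunits rose after injury in old cells too. At 60 h 55 members were called higher than in old QSCs (17.8% of genes were) and 2 lower, Cox4i2 and Cox8b (11.7% of genes were). By complex the called were 23 of 34, 4 of 4, 7 of 8, 6 of 17 and 15 of 17, from I to V. Ndufa9 went from 8.14, 8.10 and 8.09 to 10.45, 10.39 and 10.48, a change of 2.33 (SE 0.05). Compared with young cells at 60 h, Ndufc1 alone was called lower (0.657% of genes were), at 9.72, 9.73 and 9.79 against 10.32, 10.25 and 10.43 (-0.59). Its fold fell short without young replicate 3 (-0.54) or without old replicate 1 or 2 (-0.58 each). The other differences were small and ran one way. The difference was below 0 for 79 of 80 members, with a median of -0.24 (-0.05 over all genes), and 59 passed limma's adjusted p alone (73.8%, against 13.7% of all genes). Every old array lay below every young array for 67 members and for 22.3% of all genes, and 61.7% of all genes had a difference below 0. Markers of several other cell types were higher in old cells at 60 h. All 10 macrophage markers were called higher than in young cells, with a median of 1.69 and Lyz2 at 11.70, 11.68 and 11.72 against values from 9.94 to 10.06. The mean level of that list was 9.70 to 9.79 in the old arrays and 7.97 to 8.10 in the young. Higher too were 5 of 6 endothelial and 4 of 5 fibroblast markers. The pericyte and smooth muscle list had a mean level of 8.19 in old and 7.53 in young cells, and the adult myofibre list 7.05 and 7.31. The satellite cell list stood at 10.43 in old and 10.04 in young cells, and the proliferation list at 11.07 and 11.42. The part of all these lists in the lower subunit levels was not tested.

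**Figure D5:**
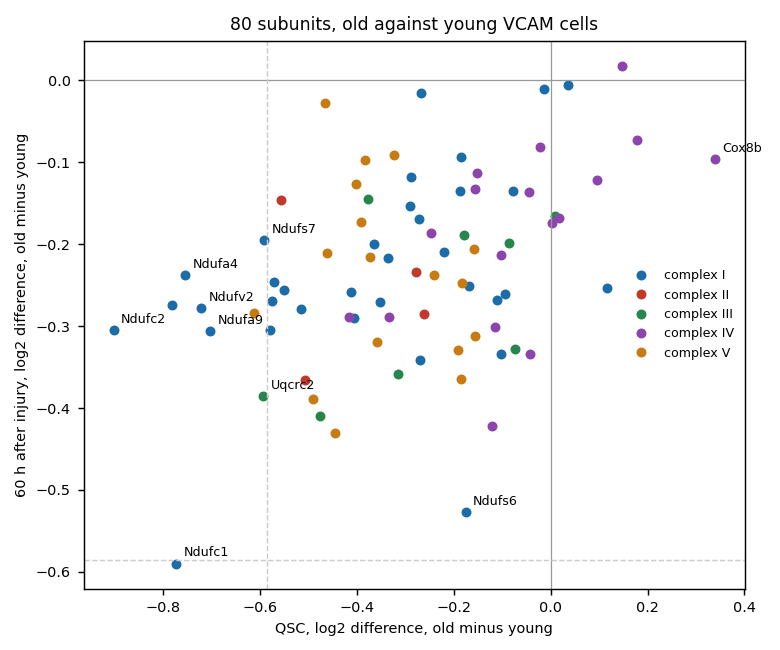
Log2 difference between old and young VCAM cells for each of 80 subunits, in QSCs (x axis) and at 60 h after injury (y axis, over separate arrays), coloured by complex; dashed lines mark a fold of 1.5 lower. At 60 h 79 of 80 points lie below 0 (61.7% of all genes do), and in QSCs 71 do (46.6% of all genes). With arrays centred or quantile normalised again 69 members were below 0 in QSCs. In QSCs 9 members named for complexes I, III and V lie past the dashed line.

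The response to injury itself was compared between ages as an interaction, and 1 member was called (8.97% of genes were). Ndufc2 changed by 1.73 in old and 1.13 in young cells, a difference of 0.60 (SE 0.08, limma adjusted p = 1.21e-06). It missed the fold without young QSC replicate 1 (0.57), young 60 h replicate 1 (0.58) or old QSC replicate 3 (0.50), and with arrays centred or quantile normalised again no member was called. Ndufa4 and Ndufb5, at 0.52 and 0.51, were next and under the fold required.

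Over the 7 comparisons of injured with quiescent cells, which share QSC arrays within a series, 22 members were called higher in every one, as were 6.11% of all genes. Those named for complex I were Ndufa3, Ndufa4, Ndufa8, Ndufa9, Ndufb3, Ndufb6, Ndufb7, Ndufs1, Ndufs4 and Ndufs7. The others were Sdhb and Sdhd, Uqcrc1, Cox5a and Cox7b, and Atp5b, Atp5g1, Atp5g3, Atp5md, Atp5mpl, Atp5o and Atp5pb. Atp5g1 missed the fold at 36 h in VCAM cells with arrays centred (0.56) or quantile normalised again (0.46). A further group of 16 was called higher in none, as were 73.5% of all genes, and 8 of those 16 belonged to complex IV. These 8 were Cox4i1, Cox7a2l and the isoforms of few tissues except Cox7a1. A set of 52 was called higher in all 5 comparisons at 60 or 84 h, where 10.5% of all genes were.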

How the data were processed

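Values came from the series' table of 35556 probe sets on 30 arrays. Per the labels and the submitters' processing notes, the authors summarised the Affymetrix arrays in Expression Console by RMA, and the deposited values are log2 expression (their versions: not given in the sources used here). RMA subtracts background, sets all arrays to 1 distribution and summarises the probes of a set. A shift of all genes alike therefore cannot be seen, and fold changes of genes with low signal are compressed. Array medians were 7.03 to 7.16.

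Probe sets with 1 gene symbol in the platform annotation were kept, the one with the highest mean over all arrays per gene, giving 19938 genes. For 16 members it was chosen from several probe sets. A linear model with the 10 group means over all 30 arrays was fitted in limma 3.58.1 (R 4.3.3, statmod 1.5.0) with moderated variances and Benjamini-Hochberg adjustment over all genes. Interactions are differences of 2 such differences. The fit was tested on simulated data. The fold threshold of 1.5 was taken from an earlier analysis of these data, and the members, gene lists and tests were chosen with earlier results of these data known. Named in the text were, per complex, the 3 members highest and the 1 lowest at 60 h in young VCAM cells, every member called lower after injury, fixed catalytic members and isoform families, the members called by age or sort (the 4 largest differences where more were called) and up to 4 genes of a list. Genes named beyond this were chosen after their values were seen. Promoter windows are RefSeq's on GRCm38.p6. Of the 80 members 61 had a single window, and the others were left out of the search. The number of arrays, 3 per group, limits the precision. Alternatives were other scalings, probe set choice, a filter on dim genes, the samples in the fit, the variance model, the fold threshold, a replicate block and leaving out each array.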

Additional observations from a re-analysis of the deposited data

Results flagged for a closer look

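The difference of 2 responses to injury passed the test of the interaction for 5 subunits. Of all genes 8.97% were called in either direction when the response was compared between ages at 60 h. Between sorts 9.09% of all genes were called at 36 h and 4.99% at 60 h. The share of the 80 subunits called was lower than that of all genes in each of these tests. Ndufc2 changed by 0.60 more in old than in young VCAM cells at 60 h. Between YFP and VCAM cells at 36 h, Cox6a1 differed by 0.64, Ndufa6 by 0.62 and Uqcr11 by 0.60, each with the higher change in YFP cells. With each array centred on its median these were 0.57, 0.56 and 0.54 and that of Ndufc2 was 0.50, all short of the fold of 1.5. At 60 h Sdhc differed by 0.68 in the same direction. Groups of 3 arrays were not searched for outlying samples.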

How the results depend on the processing

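The precision rests on 3 arrays a group, and genes of low signal such as Cox8b have compressed folds. All 21 counts of called members stayed within 1.5 times under the filter on dim genes, the fit on the compared groups only, the trended robust variance and the replicate block. The block gave 53 at 60 h in young VCAM cells, as without it. It changed none of the 125 results checked for single named members. Calls of the other members were not compared 1 by 1. Residuals from the group means were correlated between arrays of different groups: 27 of 135 pairs with the same replicate number were above 0.1. The mean was 0.035, against -0.018 for other numbers. Residuals sum to 0 within each group, which ties these means to each other, so the second is no independent baseline. The check also pools all groups, so it cannot exclude pairing within some of them. In what follows the cause was not tested.

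With each array centred, 33 (VCAM) and 35 (YFP) members were called higher at 60 than at 36 h, 0 between 60 and 84 h in YFP cells, 2 between ages at 60 h and 0 for the response by age. Quantile normalisation again gave 0 for the response by age and 2 for the response by sort at 84 h. The mean of probe sets gave 0 between ages at 60 h. With a fold of at least 2, counts were 8 (VCAM) and 7 (YFP) at 36 h, 36 at 84 h in VCAM cells, 0 (VCAM) and 4 (YFP) from 36 to 60 h, and 0 in YFP cells from 60 to 84 h. They were 0 between ages in QSCs and at 60 h, 0 for the response by age, 0 between sorts at 36 and at 60 h and 0 for the response by sort at both times. With no fold threshold the counts were 54 (VCAM) and 63 (YFP) higher at 36 h, and 71 and 60 higher from 36 to 60 h. Of all genes 28% and 24% were higher by adjusted p at 36 h, and 26.8% and 29.5% from 36 to 60 h. From 60 to 84 h the counts in either direction were 14 and 37. There 28.0% of all genes passed in VCAM cells, and 20.8% were lower and 18.3% higher in YFP cells. Between ages the counts were 54 in QSCs, 59 at 60 h and 25 for the response. Of all genes 21.3% were lower and 16.7% higher in QSCs, 13.7% and 14.2% at 60 h, and 12.6% and 18.7% for the response. Between sorts the counts were 40 in QSCs, 44 at 36 h, 11 at 60 h and 20 at 84 h. The lower and higher shares of all genes were 15.2% and 14.8%, 19.6% and 17.7%, 5.06% and 7.56%, and 9.88% and 10.8% in that order. For the responses the counts were 40, 12 and 37 at 36, 60 and 84 h. Those shares of all genes were 16.3% and 14.9%, 11.7% and 12.7%, and 13.5% and 13.9%.

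Leaving out 1 array gave 0 to 1 between ages at 60 h, 0 to 1 for the response by age, 0 to 1 between sorts in QSCs and at 60 h, and 0 to 2 for the response by sort at 84 h. The QSC count between sorts became 1 without VCAM QSC replicate 3 or YFP QSC replicate 3. The count for the response by sort at 84 h was 2 without VCAM QSC replicate 2, YFP QSC replicate 2 or 3, or YFP 84 h replicate 3, and 1 without 6 other arrays. The other counts stayed within 1.5 times, such as 52 to 54 at 60 h in VCAM cells and 8 to 13 between ages in QSCs. Values near 0 changed sign. Uqcrh at 60 h was 0.083 with centring, and with 1 array left out it ran from -0.026 to 0.021, above 0 without VCAM QSC replicate 3 or VCAM 60 h replicate 1. Atp5e was -0.073 at 60 h and -0.081 at 84 h with quantile normalisation. Cox7b2 at 36 h ran from -0.077 to 0.050, above 0 without VCAM QSC replicate 3 or VCAM 36 h replicate 2 or 3. Cox8b at 60 h in YFP cells missed the fold without YFP QSC replicate 1 (-0.56) or YFP 60 h replicate 3 (-0.53) and with quantile normalisation (-0.56), and Cox7a2 between sorts at 36 h without VCAM replicate 2 or 3 or YFP replicate 3 (-0.56, -0.53 and -0.55).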
